A study of Mus musculus with 2 samples.

Results

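Acta2 and Tnc were examined for 3 histone marks in mouse mesenchymal stromal cells (MSCs) with and without Dicer, the ribonuclease that cuts microRNA precursors. All events listed by the authors between 34305000 and 34340000 on chromosome 19 (Acta2) and between 63610000 and 63725000 on chromosome 4 (Tnc), in mouse build mm9, were taken: 24 of the 21418 events in 6 lists, 12 per gene. An event is a point at which the authors' software placed more reads of a mark in one genotype than in the other. The windows were chosen because these events had been seen in the data, so their reads and ratios are given as a description, without a test.

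Both groups were monoclonal immortalized MSCs, named fibroblasts in the sample titles, cultured in Alpha-MEM with fetal bovine serum and fixed with formaldehyde: Dicer KO (knockout, KO) and Dicer WT (wild type, WT). The labels give 1 sample per genotype, for chromatin immunoprecipitation with an H3K27ac antibody. The H3K4me3 and H3K36me3 lists were assigned to the genotypes by their names. How Dicer was inactivated, and how many clones were used, is not given in the sources used here. Each list gives 1 value per genotype, with replicates pooled (H3K27ac) or their handling not stated, so no replicate error can be given and a difference between clones cannot be told apart from a difference in Dicer. In a population of cells, fewer cells with a mark and less mark per cell cannot be told apart either. The cell type was not checked against marker genes, since no mm9 annotation was used, and the Dicer1 gene was not examined here.

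Acta2 encodes smooth muscle alpha-actin, the actin of contractile stress fibres in smooth muscle cells and myofibroblasts. Its transcription is known to depend on serum response factor (SRF), which binds CArG boxes with its myocardin-family partners, and it is induced by TGF-beta. Tnc encodes tenascin-C, a glycoprotein of the extracellular matrix that is made in development, tendon and healing wounds and binds integrins on the cell surface. H3K4me3 marks active promoters, H3K27ac marks active promoters and enhancers, and H3K36me3 is laid down along transcribed gene bodies. In the RefSeq gene order of GRCm38.p6, Acta2 (gene 11475) lies between Stambpl1 and Fas, and Tnc (gene 21923) between Tnfsf8 and Pappa. Both genes are on the minus strand in that assembly, so a lower coordinate lies further along the direction of transcription, called inward below.

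The promoter sequences are shown because the listed H3K4me3 events gathered within a short stretch in each window, called the promoter stretch of the gene below. The name is taken from the mark, and the place of the stretch relative to the annotated start was not determined in mm9. They are RefSeq records of GRCm38.p6, from 250 bases before to 50 bases after an annotated start, 5′ to 3′ on the minus strand: chr19:34255324-34255623 for Acta2 and chr4:64046887-64047186 for Tnc. These coordinates belong to another build than the events and cannot be set beside them. Capitals mark matches, on either strand, to the CArG box with 1 G or C in its core, to CATTCC (the MCAT element) and to TATANA.
Acta2: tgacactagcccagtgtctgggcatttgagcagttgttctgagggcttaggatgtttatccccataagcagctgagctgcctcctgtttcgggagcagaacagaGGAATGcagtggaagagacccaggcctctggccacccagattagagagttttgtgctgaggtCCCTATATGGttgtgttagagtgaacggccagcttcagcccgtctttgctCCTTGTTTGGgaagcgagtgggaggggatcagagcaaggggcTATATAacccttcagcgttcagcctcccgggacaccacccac
Tnc: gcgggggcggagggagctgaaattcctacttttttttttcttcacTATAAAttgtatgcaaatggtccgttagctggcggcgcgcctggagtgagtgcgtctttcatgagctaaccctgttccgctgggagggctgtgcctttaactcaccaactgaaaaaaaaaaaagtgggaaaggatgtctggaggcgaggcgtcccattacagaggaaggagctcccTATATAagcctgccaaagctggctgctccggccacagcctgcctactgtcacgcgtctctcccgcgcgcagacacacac
The Acta2 record held 2 CArG boxes with 1 G or C in the core, ccctatatgg at -84 to -75 and ccttgtttgg at -34 to -25 from the annotated start, and no CArG box with only A and T in its core. It also held ggaatg, which is CATTCC on the other strand, at -146 to -141, and TATANA at 8 to 13. Of the 32851 promoter records in the table, 8.50% had a CArG box with 1 G or C in the core, 1.63% one with only A and T, 14.7% CATTCC and 24.7% TATANA. The Tnc record had none of these letters except TATANA, at -205 to -200 and at -29 to -24. Another Tnc record, whose start lies 79 bases further upstream, also had TATANA alone among them. The matches did not overlap each other, and a match is a description of letters, not of binding.

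All 24 events were listed higher in WT, and neither window held an event higher in KO. For H3K4me3, 88.2% of all 6280 listed events were higher in WT, and 98.2% of those on chromosome 19 and 94.8% on chromosome 4. For H3K36me3 the share was 66.2% of 5050, and 89.7% and 87% on those chromosomes. For H3K27ac it was the less common direction, with 17.5% of 10088 events, 26% on chromosome 19 and 23.1% on chromosome 4. The windows were chosen from these values, so nothing is read from the direction of their events.

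At the promoter stretch of Acta2, 3 H3K4me3 events spanned 1429 bp. The event with most reads, at 34329424 on chromosome 19, had 1195 WT reads and 140 scaled KO reads, a WT to KO ratio of 8.52 (95% counting interval 7.50 to 9.68). The middle event, at 34328577, had 946 reads against 66.3, a ratio of 14.3 (12.0 to 17.1). The innermost event, at 34327996, had 422 reads against 4.4, a ratio of 95.8 (49.3 to 193). Both genotypes had fewer reads inward, KO much more so, and the ratio was larger at each step with intervals that did not overlap. These reads are the software's estimates, and only 20.6% of the WT counts in this list are whole numbers. Reads may thus be divided between neighbouring events, whereas the intervals treat each event as a separate count. Summed over the 3 events, WT had 2562 reads and KO 211 scaled reads, a ratio of 12.1 (11.0 to 13.4).

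H3K27ac at Acta2 differed less than H3K4me3. Its 3 events, from 34328503 to 34330221, had 689, 546 and 469 reads in WT against 240, 220 and 157 scaled reads in KO. Their ratios were 2.87 (2.46 to 3.35), 2.48 (2.11 to 2.93) and 2.99 (2.47 to 3.62), with overlapping intervals. The first and second of these events lay only 74 and 47 bp from the H3K4me3 events at 34328577 and 34329424, whose ratios were larger. The summed H3K27ac ratio was 2.76 (2.51 to 3.04). All 3 ratios lay under the median of the WT list, 3.86, although the reads of all 3 lay above its median of 304.

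H3K36me3 at Acta2 had 6 events, all inward of the H3K4me3 event with most reads, between 34325244 and 34328225. In WT they had 63.0 to 140 reads, and in KO 0 to 11.9 scaled reads. At 34325768 there were 140 WT reads and 0 KO reads. The interval puts this difference at 22.1-fold or more, and a floor of 3 KO reads puts it at 27.5-fold. By the lower limit of the interval, this event ranked 1 and its neighbour at 34326316 ranked 2 among the 3341 H3K36me3 events of WT. The neighbour had 125 reads against 1.7 scaled reads, which is 1 unscaled read, and its interval ran from 13.0 to 2932. The other 4 ratios lay between 7.41 and 13.1. Over all 6 events, 608 reads in WT stood against 37.4 in KO, a ratio of 16.3 (10.7 to 26.2).

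**Figure D1:**
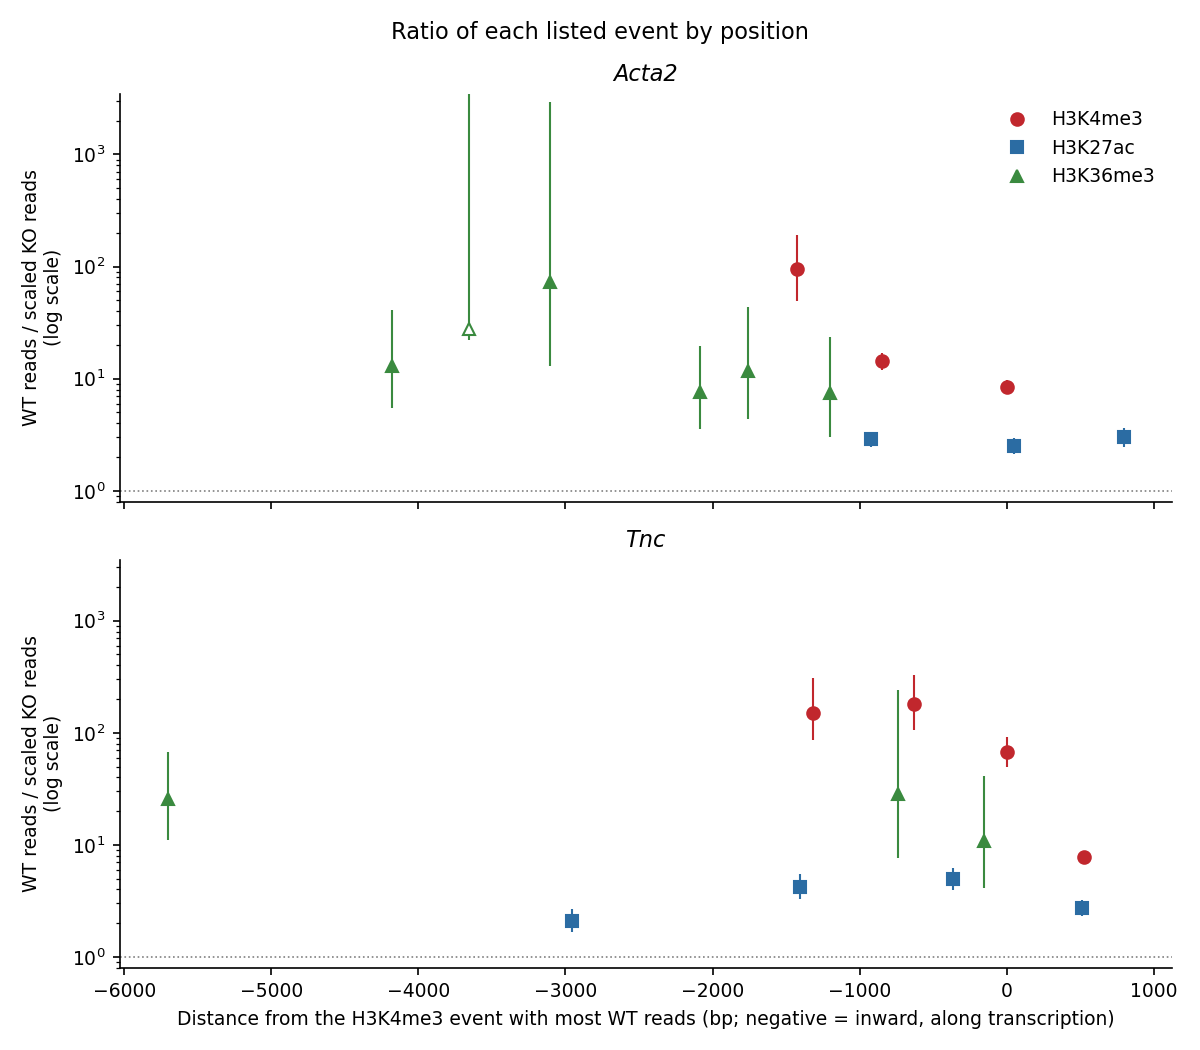
Ratio of WT reads to scaled KO reads at each listed event (log scale) against its distance in bp from the H3K4me3 event with most WT reads, for Acta2 (top) and Tnc (bottom); bars are 95% counting intervals, and the open triangle is the event with 0 KO reads, set at the floor of 3 reads with an interval that has no upper limit. H3K4me3 ratios were lowest at the outermost event of each gene (8.52 and 7.87), and 1 H3K27ac event of Tnc, at -86644 bp, lies outside the axis.

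At Tnc, the H3K4me3 ratio was again lowest at the outermost event, and the ratios of the other 3 events were 67.1 or more. The 4 events lay within 1846 bp, and in WT they had between 780 and 1315 reads. In KO the outermost event, at 63707719 on chromosome 4, had 165 scaled reads against 1296 in WT, a ratio of 7.87 (6.99 to 8.86). At 63707191, 528 bp inward, KO had 19.6 scaled reads against 1315, a ratio of 67.1 (49.0 to 92.2). The innermost pair had 6.3 and 5.2 scaled reads in KO, at 63706559 with a ratio of 181 (105 to 325) and at 63705874 with 150 (85.6 to 310). Most KO reads therefore sat at the outermost event, while WT reads were spread over all 4. Summed, 4532 reads in WT stood against 196 in KO, a ratio of 23.1 (21.0 to 25.6).

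H3K27ac at Tnc had 5 events, 4 around the promoter stretch and 1 far inward. Going inward, WT had 591 reads at 63707705, 542 at 63706829, 347 at 63705784 and 256 at 63704238. The scaled KO reads at these events were 217, 109, 82.0 and 121. Their ratios were 2.72 (2.31 to 3.21), 4.98 (4.0 to 6.20), 4.23 (3.29 to 5.51) and 2.11 (1.68 to 2.66), so the inner pair of this row differed more between genotypes than the events on either side. The distant event, at 63620547, had 228 reads against 75.5, a ratio of 3.02 (2.30 to 4.02), and at a −log10 q of 2.57 it was close to the authors' threshold of 2. Whether it lies within Tnc was not determined, for want of an mm9 annotation. The summed ratio of the 5 events was 3.25 (2.95 to 3.58), and 2 of the 5 lay above the list median of 3.86.

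H3K36me3 at Tnc had 3 events, and WT exceeded KO at each of them by more than 10-fold. At 63701485 WT had 250.5 reads and KO 9.7 scaled reads, a ratio of 25.8 (11.1 to 67.6). At 63706450 and 63707037, within the stretch with H3K4me3, WT had 97.0 and 74.0 reads against 3.4 and 6.8, with ratios of 28.5 (7.70 to 239) and 10.9 (4.08 to 41.1). Their intervals were wide and overlapped. Together the 3 events gave 422 reads against 19.9, a ratio of 21.2 (11.7 to 40.4). No H3K36me3 event was listed over the rest of the window, which says only that no difference there passed the authors' threshold.

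**Figure D2:**
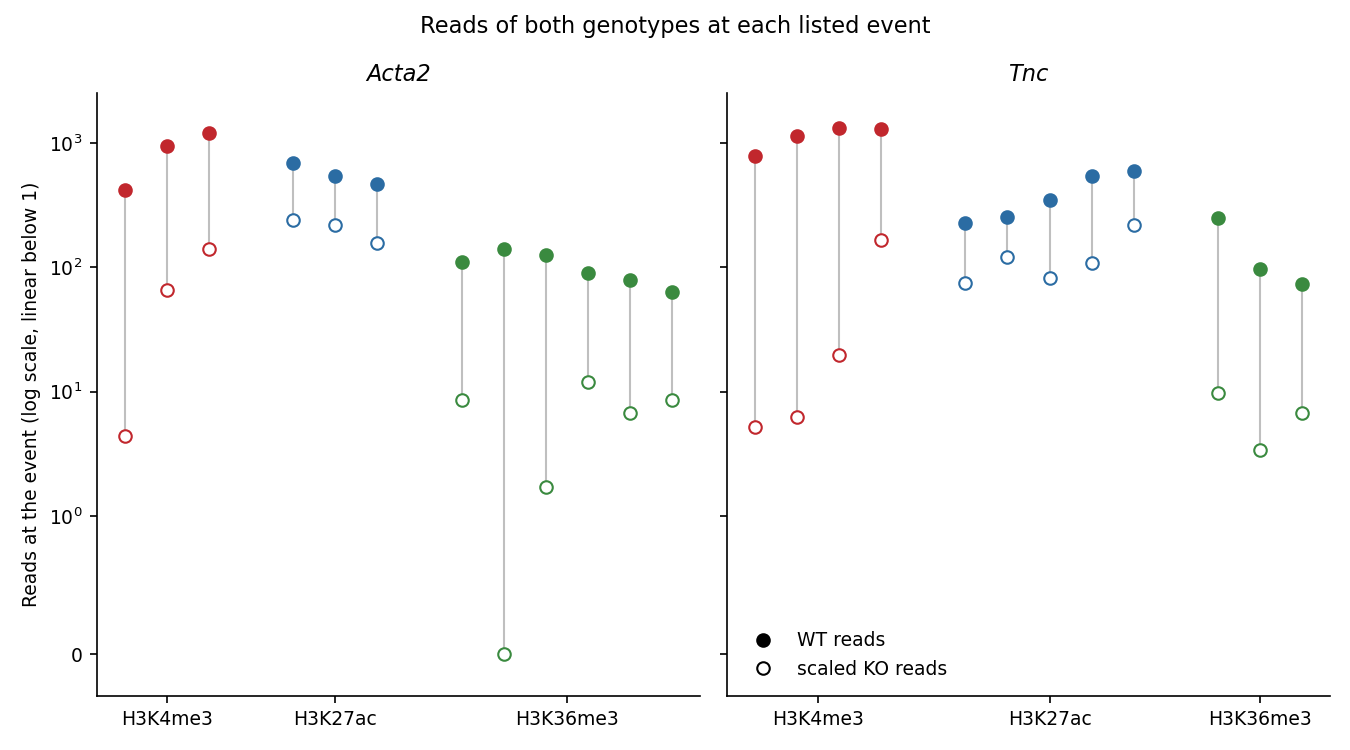
Reads in WT (filled) and scaled reads in KO (open) at each of the 24 events, ordered by coordinate within each mark; the axis is logarithmic above 1 and linear below. KO reads of H3K4me3 range from 4.4 to 140 at Acta2 and from 5.2 to 165 at Tnc, while those of H3K27ac lie between 75.5 and 240.

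The genes were then placed in the lists as a whole, as a description. At least 10-fold higher in WT were 5 of the 7 H3K4me3 events, against 8.95% of all H3K4me3 events listed higher in WT, and 7 of the 9 H3K36me3 events, against 11.8% of those listed higher in WT. Of the 8 H3K27ac events, 0 reached 5-fold, against 35% of the H3K27ac events listed higher in WT, and all 8 reached 2-fold, as did 95.5% of that list. The folds differ between the marks, so these counts are not compared across marks. The events of a gene are neighbours and do not stand for separate samples. By the lower limit of the interval, the Tnc events at 63706559 and 63705874 ranked 4 and 7 of 5542 H3K4me3 events of WT, and the Acta2 event at 34327996 ranked 36. By the ratio relative to own background, a scale described below, they ranked 12, 18 and 49. The median H3K4me3 ratio was 14.3 at Acta2 and 109 at Tnc, against 3.01 over the list. For H3K36me3 it was 12.3 and 25.8, against 3.64, and for H3K27ac it was 2.87 and 3.02, against 3.86. In both genes, then, the median event was above the list median for H3K4me3 and H3K36me3 and below it for H3K27ac.

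**Figure D3:**
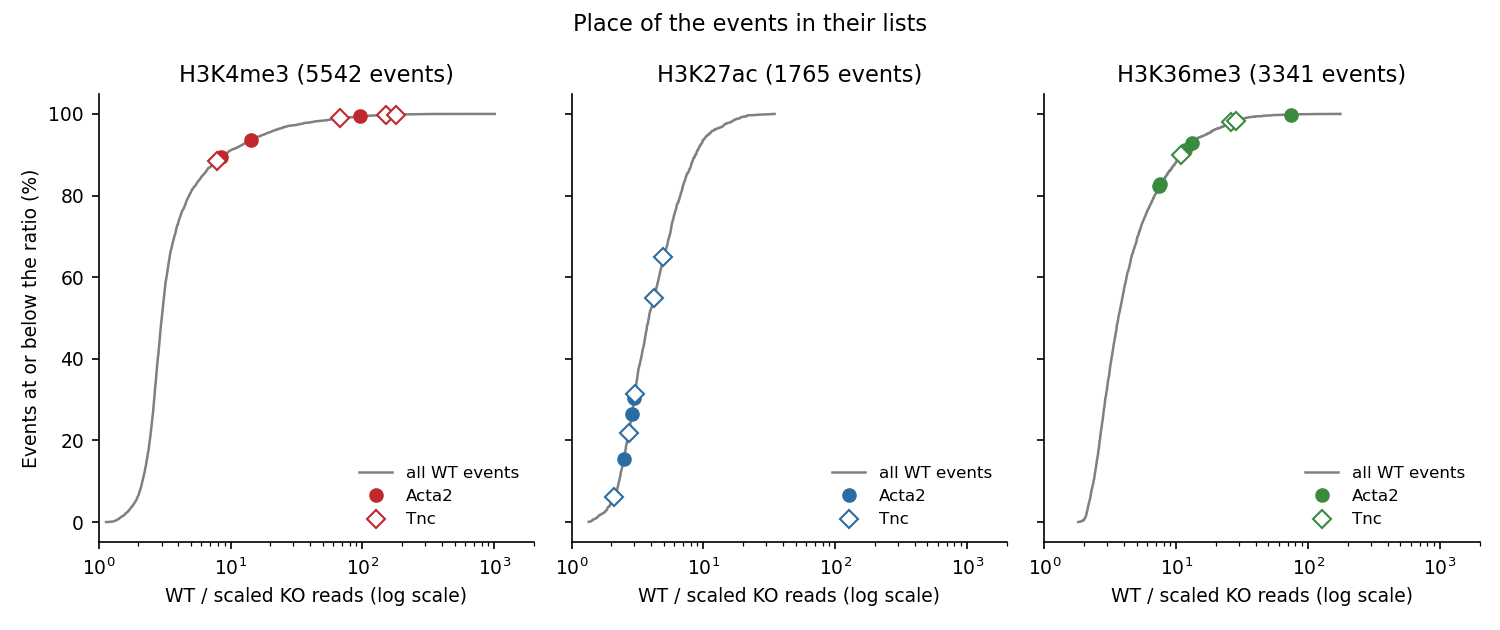
Cumulative share of WT events at or below each ratio (log scale), with the Acta2 events (circles) and Tnc events (diamonds) on the curve of each mark. The H3K4me3 and H3K36me3 events sit on the upper part of the curves, and the H3K27ac events, from 2.11 to 4.98, spread around and below the median of 3.86.

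The change of ratio along the promoter stretch was set beside other H3K4me3 regions of WT. Among the 958 regions of at least 3 events joined within 5 kb, the highest ratio was a median of 1.63 times the lowest (quartiles 1.36 and 2.26). At Acta2 it was 11.3 times, rank 23, and at Tnc 23.0 times, rank 8. By summed WT reads Acta2 ranked 496 and Tnc 106 of the same regions. This measure was chosen after the values of both genes had been seen.

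KO reads were also set beside the expected reads that the lists give per chromosome, a quantity the sources leave undefined and that is termed background below. At 5 of the 7 H3K4me3 events the unscaled KO reads lay below the KO background, which was 203 reads on chromosome 19 and 130 on chromosome 4. The exceptions were the outermost event of each gene, with 305 KO reads at Acta2 and 358 at Tnc. For H3K27ac, 7 of the 8 events had fewer KO reads than the KO background, and the outermost event of Tnc, with 199 against 185, was the exception. The share of all listed events with KO reads below background was not determined, so neither count is read as a trait of these genes. WT lay above its own background at each event of both marks, by 2.09 to 11.2 times for H3K4me3 and 1.23 to 3.18 times for H3K27ac. The events entered only because they were listed higher in WT, so no contrast with KO is read from this.

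The size of the H3K4me3 ratio depends on the scale. The authors multiplied KO by 0.461 in the H3K4me3 list of WT, and with each genotype divided by its own background the summed ratio became 5.63 at Acta2 and 11.8 at Tnc. On that scale the list median was 1.49, and 607 of its 5542 events were below 1, while the lowest of the 7 events at both genes was 3.95. The same scale gave 3.05 and 3.55 for H3K27ac. No background scale was available for H3K36me3, whose expected reads vary along each chromosome, and unscaled its summed ratios were 27.6 and 35.9. The expected WT reads at its Acta2 events were 32.1 to 71.7, where WT had 63.0 to 140 reads. At its Tnc events they were 41.6 to 187.4, where WT had 74.0 to 250.5 reads.

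**Figure D4:**
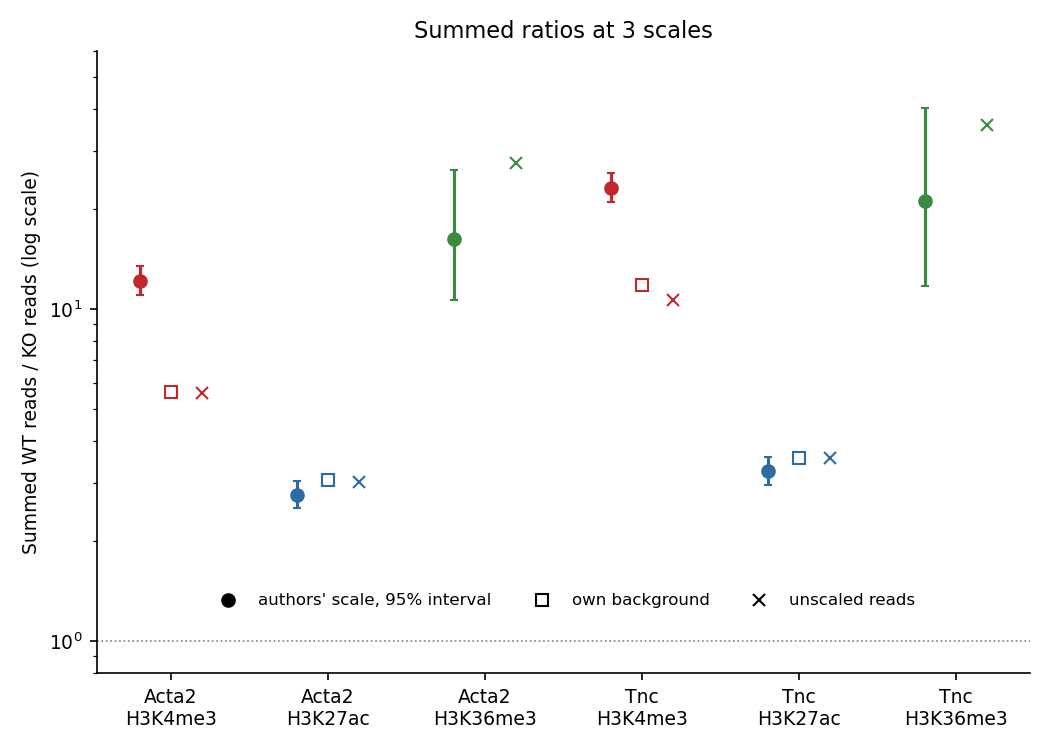
Summed WT to KO ratio (log scale) of each gene and mark at the authors' scale (circles, with 95% counting intervals), relative to own background (squares, not available for H3K36me3) and from unscaled reads (crosses). All values lie above 1, and the H3K4me3 ratios of 12.1 and 23.1 become 5.63 and 11.8 relative to own background.

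Joined within 10 kb, the events of all lists formed 60 regions with all 3 marks higher in WT, and the stretches at Acta2 (34325244 to 34330221) and Tnc (63701485 to 63707719, without the distant event) were 2 of them. In 55 of the 60 the H3K4me3 ratio exceeded the H3K27ac ratio, with a median quotient of 2.26 (quartiles 1.52 and 4.03) at the authors' scale. This count depends on how each mark was scaled: it was 31 of 60 relative to own background, with a median quotient of 1.08, and 29 of 60 from unscaled reads, with a median of 0.953. The quotient at Acta2 was 4.40 (rank 11) at the authors' scale, 1.85 (rank 16) relative to own background and 1.85 (rank 11) unscaled. At Tnc it was 7.06, 3.30 and 2.97, rank 4 at each scale. The scales other than the authors' were added for these regions after seeing the data. By H3K4me3 ratio Tnc ranked 10 and Acta2 21, by H3K36me3 ratio 8 and 12, and by H3K27ac ratio 34 and 48. Between the genes, the H3K4me3 ratio was higher at Tnc with intervals that did not overlap, whereas the intervals of the other marks overlapped.

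**Figure D5:**
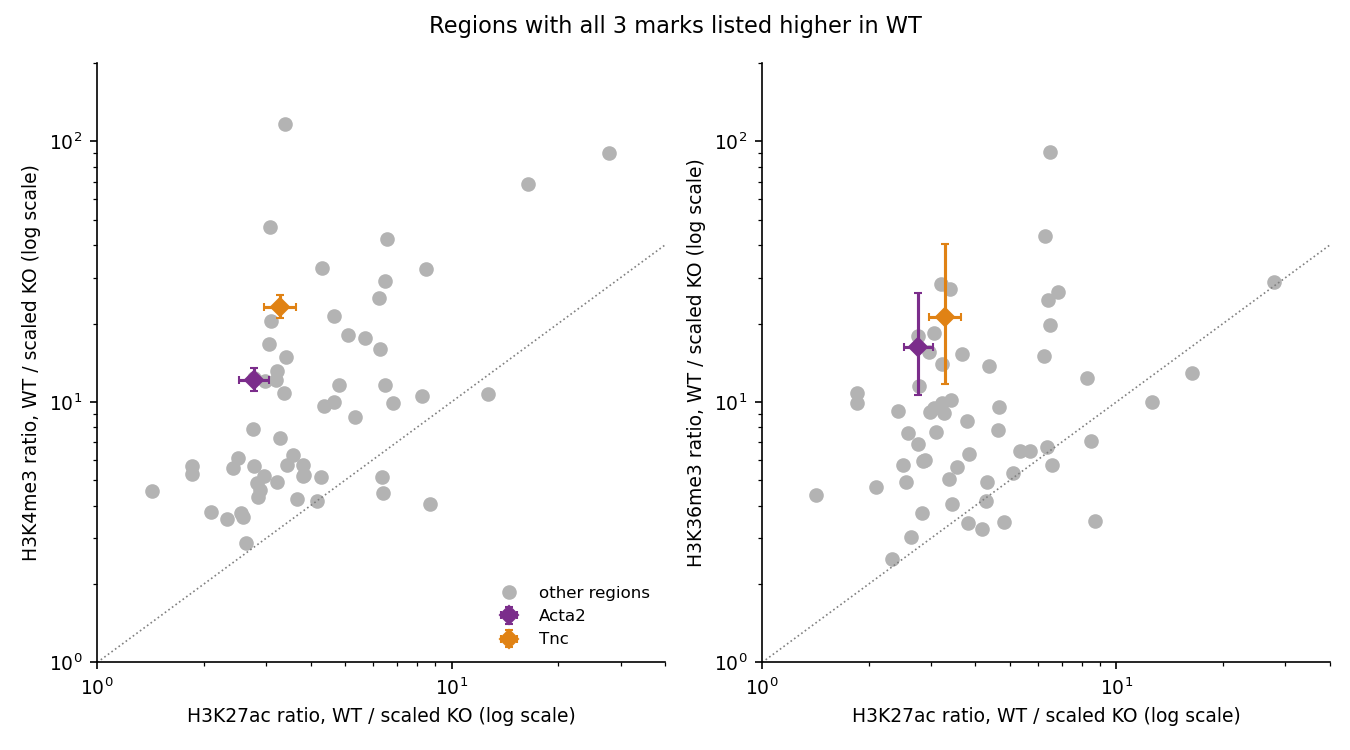
Summed ratios of H3K4me3 (left) and H3K36me3 (right) against that of H3K27ac, on log scales, for the 60 regions with all 3 marks higher in WT; bars on Acta2 and Tnc are 95% counting intervals and the dotted line marks equal ratios. At the authors' scale, which is plotted, both genes lie above the line, at H3K27ac ratios of 2.76 and 3.28.

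The regions most like each gene were found by the distance between their summed log2 ratios of the 3 marks. Nearest to Acta2 was 50862730 to 50884974 on chromosome 9, where the H3K4me3 ratio was 13.1, the H3K27ac ratio 3.22 and the H3K36me3 ratio 14.0. It was followed by 59532464 to 59539811 on chromosome 19 (12.3, 2.77 and 11.5, in the same order), and then by 157083765 to 157092395 on chromosome 1 (12.2, 3.20 and 28.4). Nearest to Tnc were that region of chromosome 1, 10203073 to 10208287 on chromosome 3 (47.0, 3.06 and 18.4) and the region of chromosome 9. Among the 59 other regions Acta2 was the fourth nearest to Tnc, and Tnc the ninth nearest to Acta2.

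The nearest listed events outside the windows are given as distances from the lowest or highest event of any mark in each window. At Tnc the lowest is the distant H3K27ac event at 63620547. The nearest H3K4me3 events, all higher in WT, lay 858 kb below and 1862 kb above the events of Acta2, and 743 kb below and 1077 kb above those of Tnc. The nearest H3K27ac event above Acta2, at 34420225 and 90.0 kb away, was higher in KO, with 491 reads against 172.5 scaled reads in WT and a KO to WT ratio of 2.85 (2.41 to 3.37). Below Acta2, the nearest was 1152 kb away and also higher in KO, by 2.34 (2.08 to 2.63). Above Tnc, the nearest H3K27ac event, at 63810578 and 103 kb away, was higher in WT by 2.66 (2.28 to 3.10). Below Tnc, the nearest, at 63377195, was higher in KO by 2.44 (1.97 to 3.04). For H3K36me3, the nearest event below Acta2, 4293 kb away, was higher in KO by 10.0, with 23 reads against 2.3 scaled reads (3.42 to 39.8), and the nearest above, 237 kb away, was higher in WT by 3.24 (1.64 to 7.13). Both H3K36me3 neighbours of Tnc were higher in WT, 624 kb below by 5.74 (2.07 to 22.1) and 1081 kb above by 7.39 (2.97 to 23.3).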

How the data were processed

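Reads had been aligned to mm9, and TopHat 1.4 is named without its role, per the submitters' processing notes. The 6 deposited lists come from GPS or GEM, per the file headers and names. For H3K36me3 the WT list is from GEM and the KO list from GPS. Both H3K4me3 lists are from GEM and both H3K27ac lists from GPS. Comparisons of H3K27ac ratios with those of the other marks thus also compare different software, and its effect was not tested. The authors' estimated count is the reads of the higher genotype at an event. The deposited control signal is the other genotype's reads after scaling, and the deposited −log10 q starts at 2 in every list. The scaling factors were recovered as the step between 0.3 and 3 (every 0.0005) whose multiples held most control values within 0.06 of the file's units, beyond the share expected by chance, among events with whole counts. They were 0.461 for H3K4me3 (only 54.2% of values whole, so its unscaled KO reads are approximate), 1.09 for H3K27ac and 1.70 for H3K36me3 in the WT lists.

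The ratio is WT reads over scaled KO reads, with a 95% interval from the exact binomial (Clopper-Pearson) limits of the WT share of unscaled reads. Intervals cover counting error only, and treat the estimated reads of each event, rounded, as a separate count. As no source names molecular identifiers, reads may repeat molecules. Library depth is unknown. With 0 reads, a floor of 3 reads was used. The factor search and the interval were tested on simulated data. For the interval these were independent whole counts, so its coverage for the estimated reads of neighbouring events, or for very low KO reads, was not tested. All events of both windows were named, and the 3 most similar regions, by the distance of log2 ratios with 1 read added. The windows, gene choice and measures were chosen with earlier results of these data known. Other contractile and matrix genes were not analysed here, for want of an mm9 annotation. The software was SciPy 1.17.1, pandas 2.3.3, matplotlib 3.10.9 and NumPy 2.4.6 under Python 3.11.15.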

Additional observations from a re-analysis of the deposited data

How the results depend on the processing

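All 39 alternative values of the summed ratios stayed above 1, and 31 lay within the counting interval of the reported value. Only events listed higher in WT entered, so most settings could not have fallen below 1. Requiring at least 50 reads, or widening the windows by 10 kb, left every summed ratio unchanged, so those values are no separate check. A −log10 q of at least 5 likewise changed neither H3K4me3 ratio, nor H3K27ac at Acta2. Those outside it were H3K4me3 at Acta2 with own background (5.63), unscaled (5.59) and as the median of the events (14.3), H3K4me3 at Tnc under the same changes (11.8, 10.7 and 109), H3K27ac at Acta2 with own background (3.05) and H3K36me3 at Acta2 unscaled (27.6). The number of regions with a larger ratio for H3K4me3 than for H3K27ac, 55 of 60, became 31 with own background and 29 unscaled, both added after seeing the data. The numbers of events stayed within 1.5 times the reported 12 except where events within 5 kb were merged, which by construction left 3 at Acta2 and 4 at Tnc. A −log10 q of at least 5 left 10 events at Acta2 and 8 at Tnc, the latter at the limit of that range. At a −log10 q of at least 5, no H3K36me3 event of Tnc was left, so that value could not be given. No paired analysis was possible because replicates are not separated in any list, which also means that none could be left out. H3K36me3 in KO rests on at most 7 unscaled reads per event.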
